A study of Mus musculus with 10 samples.

Results

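Interferon-stimulated genes are the genes that cells switch on when an interferon reaches its receptor. A list of 46 such genes was followed in the mouse hippocampus after status epilepticus (SE), and 45 of them were rows of the deposited table of 15900 genes, found by their symbol. Igtp was not analysed here. Each of the 45 passed the filter on low values (at least 0.1 CPM, tags in proportion to all tags of the library, in at least 2 mice), and Mx1, Irgm2 and Iigp1 did so only through the mice taken at 2 days.

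Male ICR (CD-1) mice, 9 to 10 weeks old, were given methyl scopolamine and then pilocarpine (PILO), a muscarinic agonist that drives the brain into continuous seizures, and diazepam was injected to end the SE. Levetiracetam (LEV), an anti-seizure drug, was given by mouth soon after diazepam and thereafter repeatedly, which came to 1 dose in the SE + LEV 6 h group and 5 doses in the SE + LEV 2 days group. The SE 6 h and SE 2 days groups received no LEV, and the pre-SE mice are labelled untreated, while the methods of the study describe control mice that received saline in place of PILO. Whole hippocampus from 2 mice in each of the 5 groups was measured by cap analysis of gene expression (CAGE), which sequences the capped 5′ ends of RNA, so 1 tag stands for 1 RNA start whatever the length of the transcript.

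Type I interferons signal through the receptor pair IFNAR1 and IFNAR2 and the kinases JAK1 and TYK2 to a complex that holds STAT2 and IRF9 and binds the interferon-stimulated response element (ISRE) in the promoters of its targets. Interferon gamma acts on gamma-activated sites (GAS). The induced proteins sense foreign RNA, block viral entry, translation and replication, and feed back on the pathway, and in the brain microglia, astrocytes and neurons can all make them.

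The promoter letters that this pathway reads are shown first, for the 4 genes with the largest rise at 2 days that have a single RefSeq promoter window and hold the ISRE, and for the 2 genes with a single window and the smallest logFC (log2 fold change) there. Each line gives the 160 bases before the annotated start, 5′ to 3′ on the gene's strand in build GRCm38.p6, and capitals mark matches to the ISRE, searched as GAAANNGAAA or, on the other strand, TTTCNNTTTC.
Isg15: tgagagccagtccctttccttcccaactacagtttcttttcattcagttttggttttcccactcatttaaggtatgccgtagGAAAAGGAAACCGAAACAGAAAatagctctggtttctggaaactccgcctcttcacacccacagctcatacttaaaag
Ifit1: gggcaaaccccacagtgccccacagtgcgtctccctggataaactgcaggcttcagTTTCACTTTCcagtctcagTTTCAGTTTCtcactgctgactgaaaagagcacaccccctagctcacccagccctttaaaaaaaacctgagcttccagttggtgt
Ifit3: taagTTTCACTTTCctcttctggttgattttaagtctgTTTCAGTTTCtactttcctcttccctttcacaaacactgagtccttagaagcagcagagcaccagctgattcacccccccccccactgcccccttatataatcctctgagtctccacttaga
Oas1a: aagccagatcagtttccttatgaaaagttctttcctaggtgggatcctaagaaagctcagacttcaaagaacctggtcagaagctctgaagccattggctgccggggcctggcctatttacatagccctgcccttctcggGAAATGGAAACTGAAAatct
Cmpk2: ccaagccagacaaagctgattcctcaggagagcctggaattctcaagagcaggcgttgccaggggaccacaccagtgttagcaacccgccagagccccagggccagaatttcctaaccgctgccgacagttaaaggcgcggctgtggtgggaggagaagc
Samhd1: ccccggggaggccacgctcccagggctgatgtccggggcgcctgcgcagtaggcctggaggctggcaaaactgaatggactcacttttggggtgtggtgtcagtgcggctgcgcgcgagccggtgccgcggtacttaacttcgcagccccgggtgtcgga
The stretches lie at chr4:156200819-156200978 (reverse strand) for Isg15, chr19:34640729-34640888 (forward strand) for Ifit1, chr19:34583369-34583528 (forward strand) for Ifit3, chr5:120907526-120907685 (reverse strand) for Oas1a, chr12:26469055-26469214 (forward strand) for Cmpk2 and chr2:157135097-157135256 (reverse strand) for Samhd1. Isg15 carried 3 overlapping matches, with first bases at -78, -72 and -66 from the start, Oas1a 2 overlapping matches, and Ifit1 and Ifit3 2 separate matches each. No ISRE match was found in the windows of Cmpk2 and Samhd1.

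A promoter window of 250 bases before and 50 after the start was at hand for 35 of the 45 genes. Of these, 17 genes (48.6%) held the ISRE, against 3.99% of the 27025 genes with a window and 3.44% of all 32851 windows. The 17 were Bst2, Ddx58, Eif2ak2, Gbp2, Gbp3, Gbp7, Ifih1, Ifit1, Ifit3, Ifitm2, Ifitm3, Irgm1, Irgm2, Isg15, Oas1a, Rsad2 and Stat2. A GAS, searched as TTCNNNGAA, stood in 12 of the 35 (34.3%), Irf1, Irf8 and Gbp7 among them, against 9.55% of those genes and 8.30% of all windows. A match describes letters only. At 2 days after SE the genes with the ISRE had a median logFC over pre-SE of 3.34 and the 18 genes with a window but no match had 2.58, Irf7, Oasl2 and Ifi44 among them, with ranges that overlapped (1.24 to 6.77 and -0.05 to 5.79).

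The 45 genes lie on 17 chromosomes of the mm9 build used for the tags, several of them in clusters of related genes. The 3 Ifit genes stand in a row on chromosome 19 (Ifit1 at chr19:34715361-34724499), the 3 Gbp genes on chromosome 3, Mx1 and Mx2 on chromosome 16, and Ifitm2 and Ifitm3 on chromosome 7. Parp9 and Dtx3l start back to back on chromosome 16, and overlap there on opposite strands, with starts 681 bases apart. Tags of near-identical relatives within such families (Ifit, Oas1, Ifitm, Gbp) may have been split between them by the mapping, and 4 genes overlapped another annotated gene on the same strand and 8 on the opposite strand, among them Irf7 and Eif2ak2, so their values are uncertain to that extent.

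Library depth ranged from 10540698 to 51710968 tags on genes, so 3 tags, taken here as the limit of detection, correspond to 0.0580 to 0.285 CPM. Ttr, a gene of the choroid plexus, differed widely between mice of one group (5.83 and 1668 CPM in pre-SE, 4.33 and 3936 in SE 6 h and 1475 and 18.9 in SE + LEV 2 days). All 7 neuronal markers, Snap25 among them, and all 6 astrocyte markers were measured above 0 in each of the 10 mice, whereas 0 of 10 lymphocyte and natural killer cell markers were rows of the table.

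The module as a whole was a little above its pre-SE level at 6 h and far above it at 2 days. The summed level of the 45 genes was 163 and 196 CPM in the pre-SE mice, 231 and 281 in SE 6 h, 222 and 238 in SE + LEV 6 h, 1860 and 934 in SE 2 days, and 1075 and 653 in SE + LEV 2 days. Each 2-day mouse was above each earlier mouse, and SE 2 days replicate 1 was above the others. A sum leans on the most abundant genes, so the median over the 45 genes of the log2 distance from the pre-SE mean, on the log2(CPM + 0.1) scale, was also taken for each mouse. It was 0.31 and 0.46 in SE 6 h, 0.45 and 0.27 in SE + LEV 6 h, 3.98 and 2.69 in SE 2 days, and 3.04 and 2.31 in SE + LEV 2 days.

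**Figure D1:**
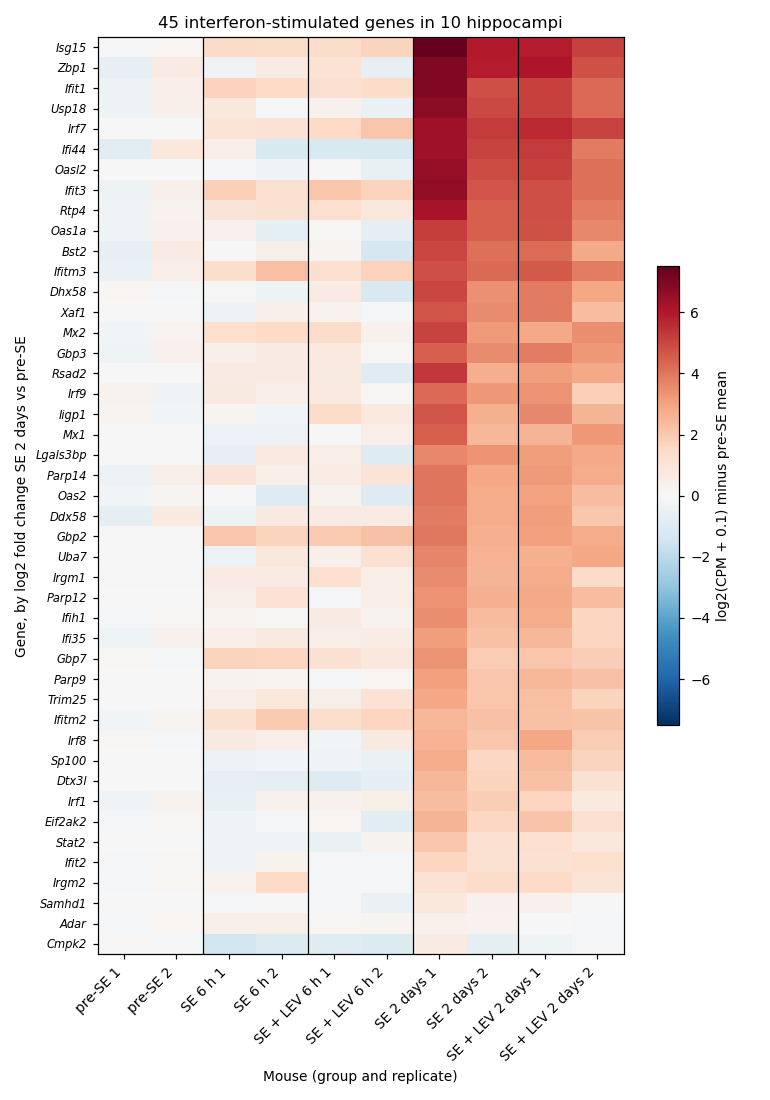
Colour gives log2(CPM + 0.1) minus the mean of the 2 pre-SE mice for each of 45 genes (rows, ordered by logFC of SE 2 days vs pre-SE) in each of 10 mice (columns). The 4 mice at 2 days are red over nearly all rows, with the darkest column in SE 2 days replicate 1, and Samhd1, Adar and Cmpk2 at the foot stay pale.

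The mice of one group differed at 2 days along the whole list. In SE 2 days, 44 of the 45 genes were higher in replicate 1 than in replicate 2, with a median ratio of 2.06, where 54.8% of all tested genes were higher in replicate 1 and the median ratio was 1.04. In SE + LEV 2 days, 40 of the 45 were higher in replicate 1 (median ratio 1.66, all genes 0.953), Mx1 and Mx2 being 2 of the 5 that were not. In pre-SE 11 of 45 (all genes 48.6%), in SE 6 h 20 of 45 (46.9%) and in SE + LEV 6 h 25 of 45 (42.4%) were higher in replicate 1. The pre-SE mice thus leaned the other way, with 33 genes higher in replicate 2, by a smaller ratio (median 0.920 for replicate 1 to 2). SE 2 days replicate 1 was the highest of the 10 mice for 42 of the 45 genes.

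Gene by gene, 41 of the 45 genes (91.1%) were higher in SE 2 days than in pre-SE at an adjusted p of at most 0.05 (limma, Benjamini-Hochberg over 15851 genes), where 5.07% of all tested genes were called higher. None of the 45 was called lower, against 0.593% of all genes. The median logFC of the 45 genes was 3.40 and that of all genes -0.03. For 44 genes the SE 2 days values did not overlap those of pre-SE and were the higher ones, as for 26.3% of all genes. Of the 42 genes that passed the filter without the 2-day mice, 39 were called higher, against 4.96% of all genes that did so. Without SE 2 days replicate 1 the count over the 45 was 30, and without pre-SE replicate 1 it was 25. The bulk tissue gives no account of which cells made the RNA, and more cells of a type and more RNA per cell cannot be told apart.

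At 6 h, by contrast, 1 of 45 genes (2.22%) was called higher than pre-SE by limma, with 2.76% of all genes called higher, and none was called lower (all genes 0.202%). On recovered tags edgeR called 3 higher (Gbp2, Ifitm2 and Ifitm3) and DESeq2 5 (those 3, Gbp7 and Isg15), against 497 and 1008 of all genes. The median logFC of the 45 genes was 0.25, where that of all genes was -0.13. With no adjustment, p was under 0.05 for 8 genes above pre-SE (Gbp2, Ifitm3, Gbp7, Ifit1, Ifitm2, Ifit3, Isg15 and Irf7) and for 1 below it (Cmpk2), against 9.21% and 8.51% of all genes. Of the 42 genes that passed the filter without the 2-day mice, 36 were called higher from 6 h to 2 days after SE without LEV (all such genes 3.04%). Over the 45 genes the count was 38 (all genes 3.14%), with a median logFC of 2.79. That median was the same with Mx1, at 0 tags in both SE 6 h mice, set to a bound from 3 tags over the group. Leaving out SE 2 days replicate 1 brought the count to 12, SE 6 h replicate 1 to 14 and SE 6 h replicate 2 to 18.

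**Figure D2:**
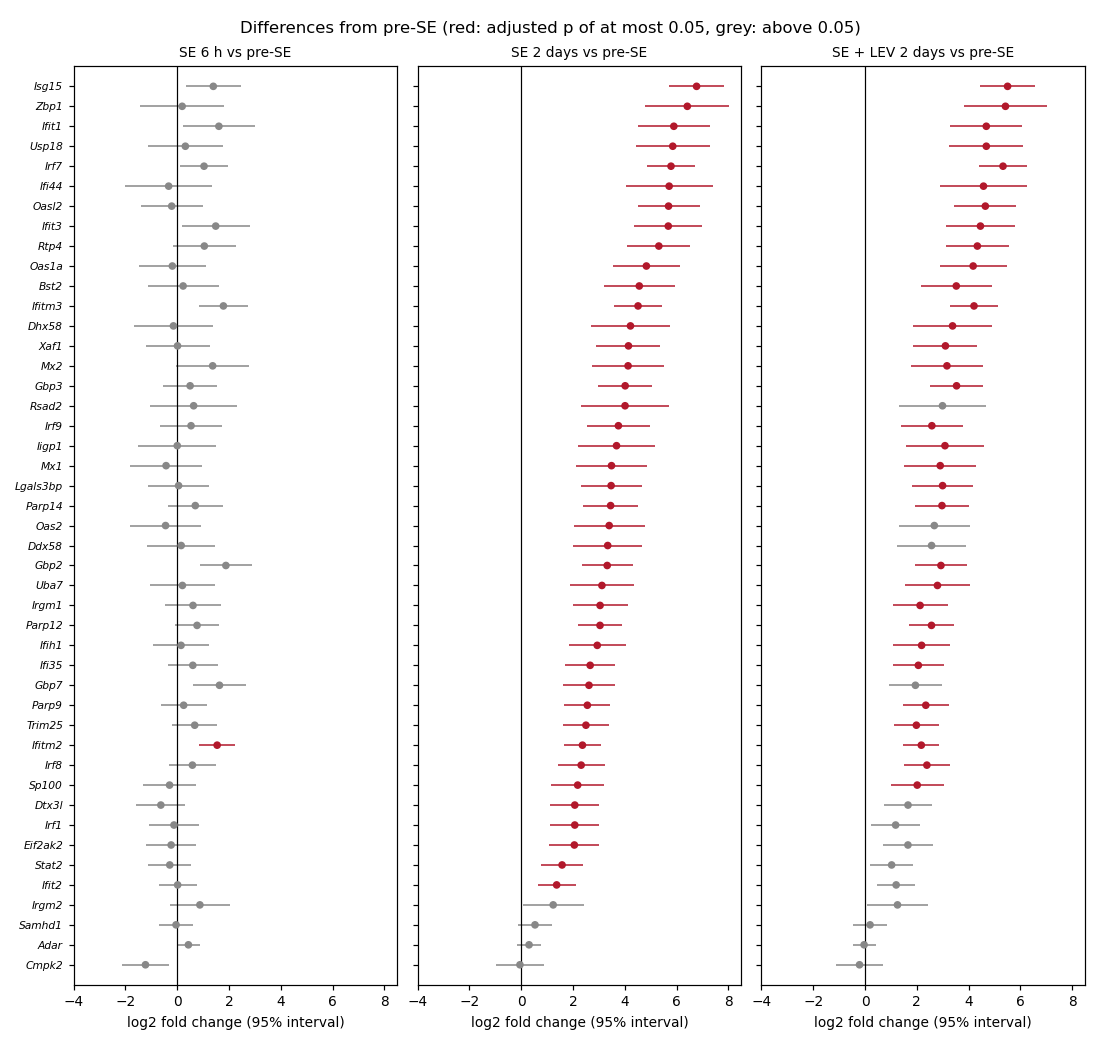
Points are log2 fold changes from pre-SE and lines their 95% intervals for 45 genes at SE 6 h, SE 2 days and SE + LEV 2 days. Red marks an adjusted p of at most 0.05, which 1, 41 and 32 genes reached.

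The group of ubiquitin-like ISG15 and the enzymes around it held the gene with the largest logFC at 2 days. Isg15, whose product is attached to other proteins, measured 1.17 and 1.51 CPM in pre-SE, 3.75 and 3.56 in SE 6 h, 3.59 and 4.46 in SE + LEV 6 h, 276 and 88.7 in SE 2 days and 84.0 and 49.99 in SE + LEV 2 days. The 2-day mice did not overlap the earlier ones. The logFC over pre-SE (6.77, standard error 0.48, adjusted p = 0.000433) was the largest among the 45 genes on the log2(CPM + 0.1) scale. That rank depends on the scale: by the ratio of group means Zbp1 rose more (199, against 136 for Isg15). Usp18, the protease that removes ISG15 and also blocks the type I receptor, measured 0.1 and 0.25 CPM in pre-SE, 0.35 and 0.14 in SE 6 h, 0.23 and 0.09 in SE + LEV 6 h, 28.1 and 8.22 in SE 2 days and 9.01 and 4.97 in SE + LEV 2 days (logFC 5.85, standard error 0.65, adjusted p = 0.00131 at 2 days vs pre-SE). Trim25, a ubiquitin ligase that acts on RIG-I, went from 2.35 and 2.38 CPM to 18.3 and 10.5 in SE 2 days (logFC 2.50), and Uba7, the activating enzyme for ISG15, from 0.07 and 0.08 to 2.08 and 0.96 (logFC 3.12). All 4 genes of the group were called higher at 2 days by limma, which called none of them at 6 h, where DESeq2 called Isg15.

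Of the 3 Ifit genes, which encode proteins that bind RNA lacking a host cap, each was called higher at 2 days. Ifit1 measured 0.21 and 0.43 CPM in pre-SE, 1.25 and 1.03 in SE 6 h, 0.83 and 0.95 in SE + LEV 6 h, 50.1 and 11.5 in SE 2 days and 14.0 and 7.56 in SE + LEV 2 days (logFC 5.90, standard error 0.63, adjusted p = 0.0013 at 2 days vs pre-SE). Ifit3, its partner, measured 0.38 and 0.7 CPM in pre-SE, 2.05 and 1.3 in SE 6 h, 2.56 and 1.9 in SE + LEV 6 h, 62.0 and 16.2 in SE 2 days and 17.3 and 10.6 in SE + LEV 2 days (logFC 5.68, standard error 0.59, adjusted p = 0.0013). Both had a 6 h estimate above pre-SE that did not pass the test (logFC 1.61 with adjusted p = 0.22, and logFC 1.49 with adjusted p = 0.229). Ifit2 started from a higher level and changed less, from 3.14 and 3.42 CPM in pre-SE to 10.1 and 7.36 in SE 2 days (logFC 1.37, adjusted p = 0.0402). Its call did not hold in every alternative fit.

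The transcription factors of the pathway, 5 of 5, were called higher at 2 days, and their rises were unequal. Irf7, which amplifies type I interferon production, measured 0.93 and 0.93 CPM in pre-SE, 1.96 and 2.06 in SE 6 h, 2.76 and 4.27 in SE + LEV 6 h, 83.3 and 38.7 in SE 2 days and 49.9 and 34.1 in SE + LEV 2 days (logFC 5.79, standard error 0.41, adjusted p = 0.000433 at 2 days vs pre-SE). Its 6 h mice lay above its pre-SE mice without passing the test (logFC 1.03, adjusted p = 0.226). Irf9, the DNA-binding subunit of the type I complex, measured 1.59 and 1.08 CPM in pre-SE, 2.12 and 1.78 in SE 6 h, 2.26 and 1.42 in SE + LEV 6 h, 26.6 and 13.5 in SE 2 days and 14.4 and 4.81 in SE + LEV 2 days (logFC 3.76 at 2 days), and Irf1, a factor that interferon gamma induces, measured 3 and 4.22 CPM in pre-SE, 2.37 and 4.45 in SE 6 h, 4.42 and 4.93 in SE + LEV 6 h, 18.2 and 12.8 in SE 2 days and 11.3 and 5.96 in SE + LEV 2 days (logFC 2.07). Irf8, a factor of microglia and myeloid cells, went from 7.21 and 6.61 to 42.3 and 28.7 CPM (logFC 2.32). Stat2, with one of the highest pre-SE levels of the list, measured 11.7 and 12.5 CPM in pre-SE, 10.04 and 9.66 in SE 6 h, 8.51 and 14.5 in SE + LEV 6 h, 50.2 and 26.2 in SE 2 days and 28.9 and 21.1 in SE + LEV 2 days (logFC 1.58, standard error 0.37, adjusted p = 0.0349 at 2 days), the smallest rise of the 5 factors, and its adjusted p ran up to 0.185 when 1 mouse was left out.

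Among the sensors of nucleic acids, 8 of 9 were called higher at 2 days. Zbp1, a sensor of Z-form nucleic acid that can trigger cell death, measured 0 and 0.14 CPM in pre-SE, 0.03 and 0.14 in SE 6 h, 0.23 and 0 in SE + LEV 6 h, 18.7 and 9.22 in SE 2 days and 10.3 and 4.15 in SE + LEV 2 days (logFC 6.42, standard error 0.73, adjusted p = 0.00137). It had 0 and 7 tags in pre-SE and 441 and 193 in SE 2 days, so its logFC depends on the pseudocount. Oasl2 and Oas1a belong to the oligoadenylate synthetases, which arm RNase L, or their relatives. Oasl2 measured 0.86 and 0.93 CPM in pre-SE, 0.83 and 0.69 in SE 6 h, 0.86 and 0.57 in SE + LEV 6 h, 90.4 and 29.1 in SE 2 days and 35.1 and 17.5 in SE + LEV 2 days (logFC 5.69, standard error 0.54, adjusted p = 0.000924). Oas1a measured 0.03 and 0.1 CPM in pre-SE, 0.1 and 0 in SE 6 h, 0.07 and 0 in SE + LEV 6 h, 5.81 and 3.49 in SE 2 days and 4.25 and 1.85 in SE + LEV 2 days (logFC 4.84, standard error 0.58, adjusted p = 0.00151), with 1 and 5 tags in pre-SE, so its logFC depends on the pseudocount. Each of the 3 stood near the limit of detection or below 1 CPM until 6 h and was above 3 CPM in both SE 2 days mice.

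Lower in the order of rises stood the RNA helicases and the kinase. Dhx58 (LGP2) went from 0.14 and 0.1 to 7.04 and 2.24 CPM (logFC 4.22), Ddx58 (RIG-I) from 0.86 and 2.34 to 22.9 and 10.4 (logFC 3.34) and Ifih1 (MDA5) from 0.79 and 0.89 to 10.4 and 4.82 (logFC 2.94). Oas2 went from 0.07 and 0.12 to 3.01 and 1.24 CPM (logFC 3.40), and Eif2ak2 (PKR), which stops translation, from 8.35 and 9.36 to 52.1 and 26.3 (logFC 2.05). Adar, the RNA editing enzyme, had the highest pre-SE level of the list and measured 58.1 and 71.2 CPM in pre-SE, 85.8 and 87.6 in SE 6 h, 68.6 and 74.3 in SE + LEV 6 h, 80.4 and 78.7 in SE 2 days and 65.4 and 60.1 in SE + LEV 2 days. Its 2-day difference did not pass the test (logFC 0.31, standard error 0.20, adjusted p = 0.456).

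The membrane proteins that restrict viruses were all called higher at 2 days. Ifitm3, which hinders fusion in endosomes, measured 6.76 and 13.3 CPM in pre-SE, 24.1 and 44.7 in SE 6 h, 22.6 and 32.2 in SE + LEV 6 h, 268 and 178 in SE 2 days and 228 and 137 in SE + LEV 2 days (logFC 4.51, standard error 0.42, adjusted p = 0.000909), and Bst2 (tetherin), which holds budding virus on the cell, measured 2.66 and 6.59 CPM in pre-SE, 4.17 and 5.82 in SE 6 h, 4.82 and 1.71 in SE + LEV 6 h, 136 and 75.9 in SE 2 days and 79.1 and 30.7 in SE + LEV 2 days (logFC 4.56, standard error 0.62, adjusted p = 0.0027). Ifitm2 measured 6.97 and 9.5 CPM in pre-SE, 17.8 and 31.9 in SE 6 h, 20.6 and 25.0 in SE + LEV 6 h, 46.9 and 38.3 in SE 2 days and 37.9 and 36.2 in SE + LEV 2 days and was the 1 gene of the 45 that limma called higher at 6 h (logFC 1.54, standard error 0.32, adjusted p = 0.0297). At 2 days its logFC over pre-SE was 2.37, and the step from SE 6 h to SE 2 days did not pass the test (logFC 0.83, adjusted p = 0.183). The 6 h call rested on few mice: without SE 6 h replicate 2 the logFC was 1.12 (adjusted p = 0.219), without pre-SE replicate 1 it was 1.32 (adjusted p = 0.194) and without pre-SE replicate 2 it was 1.76 (adjusted p = 0.0795). Ifitm3 at 6 h had a logFC of 1.78 and an adjusted p of 0.0546 by limma, and edgeR and DESeq2 called it higher.

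Guanylate-binding proteins and immunity-related GTPases, which attack the vacuoles of intracellular pathogens, were called higher at 2 days in 5 of 6 cases. Gbp2 went from 0.62 and 0.64 CPM in pre-SE to 2.95 and 2.26 in SE 6 h and 11.4 and 4.54 in SE 2 days, and Gbp7 from 1.48 and 1.33 in pre-SE to 4.59 and 4.52 in SE 6 h and 15.3 and 5.44 in SE 2 days. In both genes the mice of SE 6 h lay above those of pre-SE (logFC 1.88 with adjusted p = 0.0548, and logFC 1.63 with adjusted p = 0.0979), and the step from 6 h to 2 days did not pass the test (adjusted p = 0.106 and 0.262). The 6 h calls depended on the tool: Gbp2 at 6 h was called by edgeR and DESeq2 and Gbp7 by DESeq2.

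Of the other 4 genes of these families, 3 were called higher at 2 days. Gbp3 went from 0.48 and 0.81 to 16.5 and 8.26 CPM (logFC 4.02 at 2 days) and Irgm1 from 4.31 and 3.67 to 46.6 and 24.2 (logFC 3.05). Iigp1 measured 0.03 and 0 CPM in pre-SE, 0.03 and 0 in SE 6 h, 0.2 and 0.09 in SE + LEV 6 h, 2.88 and 0.62 in SE 2 days and 1.28 and 0.58 in SE + LEV 2 days and had 1 and 0 tags in pre-SE and 68 and 13 in SE 2 days (logFC 3.68, which depends on the pseudocount). Irgm2 measured 0 and 0.02 CPM in pre-SE, 0.03 and 0.21 in SE 6 h, 0 and 0 in SE + LEV 6 h, 0.13 and 0.19 in SE 2 days and 0.21 and 0.12 in SE + LEV 2 days, which is 0 to 9 tags in a library, and was not called at 2 days (logFC 1.24, adjusted p = 0.225), so a change was not detectable at this depth.

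The Mx proteins, viperin and the nucleotide enzymes were divided. Mx2 went from 0.17 and 0.25 to 10.4 and 2.67 CPM (logFC 4.13), Mx1 from 1 and 2 tags to 68 and 14 tags (2.88 and 0.67 CPM, logFC 3.49), and Rsad2, which encodes viperin, a radical enzyme that makes a chain-ending nucleotide, from 0.45 and 0.44 to 21.5 and 3.49 CPM (logFC 4.01). Samhd1, which degrades the nucleotides that viruses need, went from 9.35 and 9.73 to 16.4 and 11.8 CPM, a logFC of 0.54 (adjusted p = 0.363). Cmpk2, a nucleotide kinase whose gene lies 12751 bases from Rsad2 on the other strand, measured 12.3 and 10.7 CPM in pre-SE, 4.23 and 5.55 in SE 6 h, 5.98 and 5.69 in SE + LEV 6 h, 17.7 and 6.97 in SE 2 days and 9.26 and 10.6 in SE + LEV 2 days. Both SE 6 h mice were below both pre-SE mice, without passing the test (logFC -1.23, adjusted p = 0.16), and at 2 days its estimate was -0.05 (95% interval -0.96 to 0.87).

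All 4 genes of the PARP and DTX3L group, ADP-ribosyltransferases and a ubiquitin ligase that pairs with PARP9, were called higher at 2 days. Parp14 went from 0.79 and 1.49 to 19.0 and 8.79 CPM (logFC 3.45), Parp12 from 2.76 and 2.59 to 29.1 and 17.9 (logFC 3.05), Parp9 from 1.17 and 1.26 to 10.8 and 5.4 (logFC 2.56) and Dtx3l from 3.21 and 3.48 to 18.9 and 10.9 (logFC 2.07). Parp9 and Dtx3l, the back-to-back pair, had 6 h estimates of opposite sign (0.25 and -0.63), and neither was called there.

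Of the other induced genes, 6 of 6 were called higher at 2 days. Ifi44 measured 0.03 and 0.29 CPM in pre-SE, 0.22 and 0 in SE 6 h, 0 and 0 in SE + LEV 6 h, 18.3 and 7.5 in SE 2 days and 8.39 and 3.29 in SE + LEV 2 days (logFC 5.72, standard error 0.75, adjusted p = 0.00247), and Rtp4, a chaperone of receptors that is also an interferon target, measured 0.59 and 0.91 CPM in pre-SE, 1.54 and 1.71 in SE 6 h, 1.93 and 1.42 in SE + LEV 6 h, 59.5 and 18.5 in SE 2 days and 23.7 and 11.9 in SE + LEV 2 days (logFC 5.32, standard error 0.55, adjusted p = 0.00125). Xaf1, a promoter of cell death, went from 2.55 and 2.69 to 72.1 and 31.9 CPM (logFC 4.14) and Lgals3bp, a secreted glycoprotein, from 2.76 and 2.65 to 33.8 and 28.6 (logFC 3.47). Ifi35 went from 1.79 and 2.82 to 20.8 and 10.5 CPM (logFC 2.66) and Sp100, a nuclear body protein, from 1.14 and 1.1 to 8.35 and 3.53 (logFC 2.18).

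**Figure D3:**
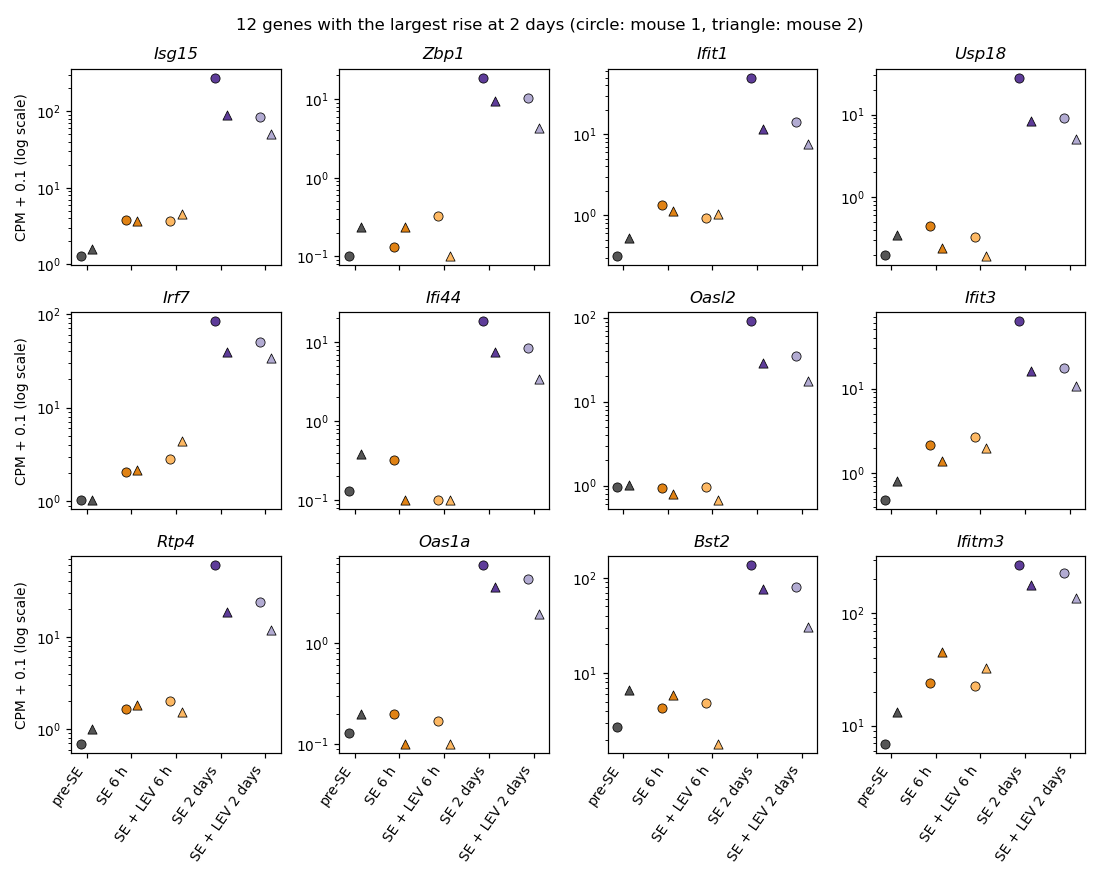
Each panel shows CPM + 0.1 on a log axis for 1 of the 12 genes with the largest logFC at 2 days, with a circle for replicate 1 and a triangle for replicate 2 of each of the 5 groups. In every panel the 4 mice at 2 days lie above the 6 earlier mice, and in SE 2 days the circle lies above the triangle.

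LEV was compared with SE alone at each time. At 6 h none of the 45 genes was called lower or higher in SE + LEV 6 h than in SE 6 h by limma (all genes 0.0126% and 0.0%), edgeR or DESeq2, and none had an unadjusted p under 0.05 (all genes 3.42% lower and 1.16% higher). The median logFC was -0.08. Both LEV mice were below both SE mice in 5 genes and above them in 5 (13.4% and 16.1% of all genes). The 3 with the smallest p were Irgm2 (logFC -1.01, unadjusted p = 0.0851), Irf7 (logFC 0.74, unadjusted p = 0.0992) and Iigp1 (logFC 1.07, unadjusted p = 0.144), all with an adjusted p of 1.

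At 2 days, too, none of the 45 genes was called lower or higher with LEV (all genes 0.0% and 0.0%; edgeR and DESeq2 also called none), and 1, Isg15, had an unadjusted p under 0.05, lower with LEV (all genes 1.39% lower and 1.31% higher). That count of unadjusted p moved with the fit: it was 6 by edgeR and 10 by DESeq2, and it rose or fell with which 2-day mouse was left out. The shares of all genes in those other fits are not given here, so these counts have no background beside them. The estimates nevertheless leaned one way: 43 of 45 (95.6%) were below 0, where 44.6% of all genes were, and the median logFC was -0.60 against 0.04 over all genes. The lean depended on which mouse was left out. Without SE 2 days replicate 1, 30 of 45 estimates were below 0 and the median logFC was -0.12. Without SE 2 days replicate 2 they were 44 of 45 and -1.10, without SE + LEV 2 days replicate 1 45 of 45 and -0.85, and without SE + LEV 2 days replicate 2 39 of 45 and -0.26.

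Mouse by mouse, both SE + LEV 2 days mice were below both SE 2 days mice in 5 of 45 genes and above them in none, against 12.2% and 15.2% of all genes. The 5 were Isg15, Irf1, Adar, Ifitm2 and Lgals3bp. For Isg15 the values were 84.0 and 49.99 CPM with LEV and 276 and 88.7 without (logFC -1.27, standard error 0.48, adjusted p = 1, 95% interval -2.34 to -0.20). Irf9, next in the order of p, overlapped between the groups (14.4 and 4.81 CPM with LEV, 26.6 and 13.5 without, logFC -1.18, standard error 0.54, adjusted p = 1), and Irf1 did not (11.3 and 5.96 CPM with LEV, 18.2 and 12.8 without, logFC -0.89, standard error 0.43, adjusted p = 1). In 39 of the 45 genes SE + LEV 2 days replicate 1 was above SE 2 days replicate 2 (median ratio 1.19), as were 54.6% of all genes (median ratio 1.03).

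**Figure D4:**
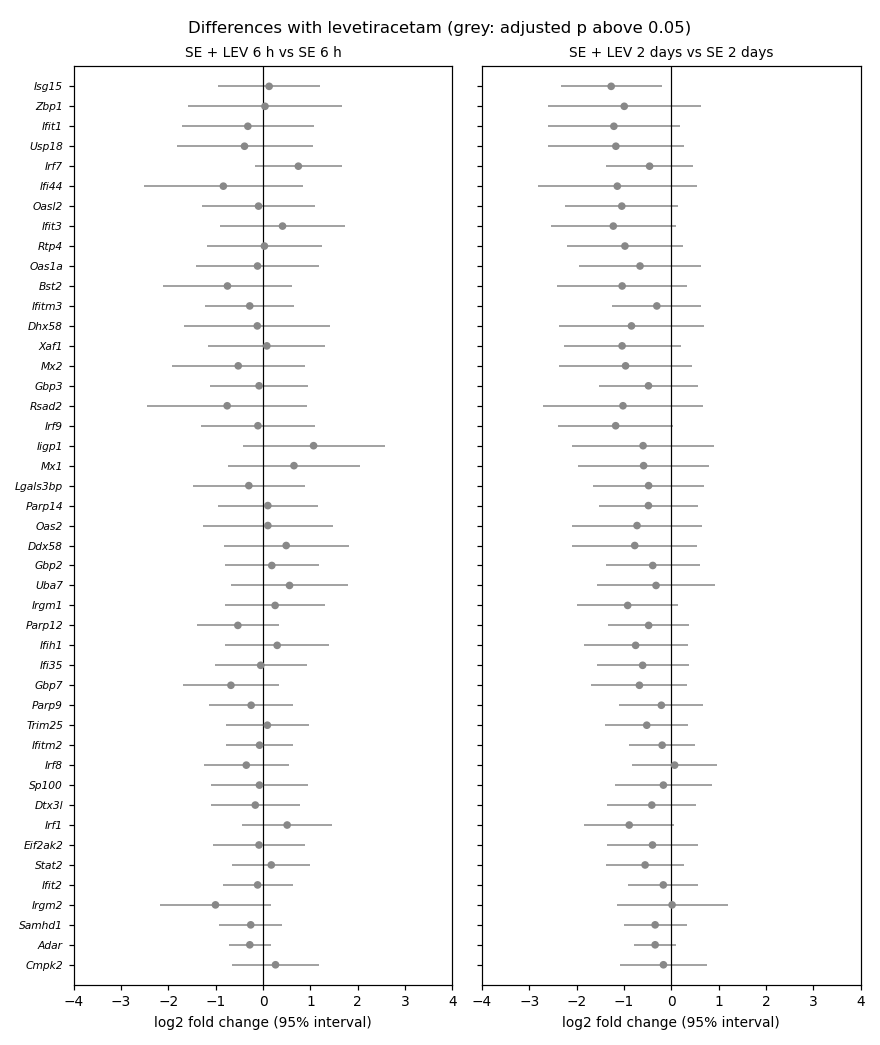
Points are log2 fold changes of the LEV groups over the SE groups of the same time and lines their 95% intervals for 45 genes. At 6 h the points lie on both sides of 0 and at 2 days 43 of 45 lie below it, with none at an adjusted p of at most 0.05.

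The size of the estimates at 2 days varied with the gene. Besides Isg15 and Irf9, the lowest were Ifit3 (logFC -1.23, 95% interval -2.55 to 0.10), Ifit1 (-1.21, -2.61 to 0.18), Usp18 (-1.17, -2.61 to 0.26) and Ifi44 (-1.14, -2.82 to 0.53). Among those nearest 0 were Irf8 (0.07, -0.83 to 0.97), Ifit2 (-0.17, -0.91 to 0.57) and Irgm2 (0.02, -1.16 to 1.19). These intervals are wide enough to hold both no change and, for Ifit1 or Usp18, a fall of more than 2 on the log2 scale.

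The difference between the LEV effects at the 2 times was tested directly. None of the 45 genes was called by limma (all genes 0.0% higher and 0.0% lower), edgeR or DESeq2, and at an unadjusted p under 0.05 none was higher and 1, Irf1, was lower (logFC -1.40; all genes 1.58% and 0.795%). The median over the 45 genes was -0.58, and -0.03 without SE 2 days replicate 1.

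The LEV-treated mice were also set against pre-SE. In SE + LEV 6 h none of the 45 genes was called higher by limma (all genes 0.315%) or edgeR (47 of all genes). DESeq2 called 6 higher (Gbp2, Ifit3, Ifitm2, Ifitm3, Irf7 and Isg15), against 354 of all genes. In the limma fit, p without adjustment was under 0.05 for 6 genes above and 1 below pre-SE. The share of all genes for that count is not given here. Of the 42 genes that passed the filter without the 2-day mice, 30 were called higher in SE + LEV 2 days than in pre-SE (all such genes 2.77%). Over the 45 genes the count was 32 (71.1%, all genes 2.83%), with a median logFC of 2.80. Isg15, Zbp1 and Irf7 had the largest logFC (Zbp1 5.42 and Irf7 5.33). Fitted on those 2 groups alone, no gene of the list was called, and without SE + LEV 2 days replicate 1 the count was 10, without pre-SE replicate 1 it was 11 and without pre-SE replicate 2 it was 16. These comparisons share the pre-SE mice with the ones above. From SE + LEV 6 h to SE + LEV 2 days 23 of 45 (51.1%) were called higher (all genes 2.06%), as were 23 of the 42 genes above (2.0%). The median logFC of the 45 was 2.33, the same with Ifi44 and Irgm2, at 0 tags in both SE + LEV 6 h mice, set to their bounds. That count fell to 3 without SE + LEV 2 days replicate 1, and was 7 without SE + LEV 6 h replicate 2 and 11 without SE + LEV 6 h replicate 1.

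The genes upstream in the pathway were read from lists of 130 genes, of which 85 were in the table. Of the interferons themselves, 0 of 21 listed genes were rows of the table, so their levels were not analysed here. Of the receptor chains, 5 of 7 were present and none was called in any comparison. Ifnar1 measured 38.9 and 47.0 CPM in pre-SE and, in SE 2 days, 52.2 and 44.0. For Ifnar2 these values were 26.7 and 37.5 before and 42.9 and 59.2 after, for Ifngr1 17 and 15.4 before and 20.4 and 20.6 after, and for Ifngr2 106 and 127 before and 98.6 and 89.8 after. Il10rb, a chain shared with the interleukin-10 receptor, measured 4.55 and 5.88 CPM before and 13.02 and 15.1 after (logFC 1.42, adjusted p = 0.0575). The 6 h estimate of Ifngr2 lay below 0 without passing the test (logFC -0.89, unadjusted p = 0.0051, adjusted p = 0.0997).

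Jak1 and Jak2, kinases that stand at cytokine receptors, were not called in any comparison.

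Inhibitors of interferon signalling were called higher in 1 of 9 cases at 6 h and 3 of 9 at 2 days, where 2.76% and 5.07% of all genes were. Socs3, which acts on cytokine receptors and which many cytokines induce, measured 0.83 and 0.89 CPM in pre-SE, 53.1 and 133 in SE 6 h, 87.2 and 46.5 in SE + LEV 6 h, 65.9 and 51.4 in SE 2 days and 58.3 and 16.8 in SE + LEV 2 days and was called at 6 h (logFC 6.46, standard error 0.58, adjusted p = 0.00138) and at 2 days (logFC 5.92, standard error 0.58, adjusted p = 0.000955). Socs1 (logFC 2.18) and Ptpn6 (logFC 2.69), a phosphatase of blood and microglial cells, were called at 2 days. Of 15 upstream sensors and adaptors, set against the same shares of all genes, 1 was called at 6 h, Ifi204 (logFC 3.74, standard error 0.72, adjusted p = 0.023), and 4 at 2 days: Ifi204 (logFC 6.51), Myd88 (2.44), Irf5 (1.69) and Unc93b1 (1.54). Irf3, Tbk1 and Mavs, which help to carry the signal from RNA sensors to interferon genes, were not called in either comparison.

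Other interferon-induced genes were read from a further list. Of 52 tested, 30 were called higher at 2 days (all genes 5.07%) and 0 at 6 h (2.76%), and 19 were called higher in SE + LEV 2 days vs pre-SE (2.83%). None was called with LEV. The 6 with the largest logFC at 2 days were Cxcl10, a chemokine for T cells (0.66 and 0.83 to 166 and 41.2 CPM, logFC 6.62), Ifi27l2a (1.07 and 4.91 to 186 and 190.1, 6.28), Ms4a4c (4.27), Oas1b (4.22), Ddx60 (4.21) and Trim30a (4.12). Ifi27l2a was level among the 4 mice at 2 days (186 and 190.1 CPM in SE 2 days and 212 and 198 in SE + LEV 2 days), whereas Cxcl10 was not (166 and 41.2 CPM in SE 2 days and 56.0 and 7.52 in SE + LEV 2 days).

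Markers of other cells moved at 2 days as well. Of 7 markers shared by microglia and macrophages, 4 were called higher in SE 2 days than in pre-SE (Cd68, Aif1, Tyrobp and Fcer1g), and the summed level of the 7 was 147 and 153 CPM in pre-SE, 144 and 142 in SE 6 h, 152 and 132 in SE + LEV 6 h, 496 and 552 in SE 2 days, and 597 and 473 in SE + LEV 2 days. The sum was not higher in SE 2 days replicate 1 than in replicate 2, unlike that of the 45 genes. At 6 h Cd68 was called higher as well (logFC 1.58). Of 6 resting microglia markers 0 were called at 2 days and 2, P2ry12 and Tmem119, were called lower at 6 h, and of 6 astrocyte markers Gfap and Aqp4 were called higher at 2 days. Plac8 was the 1 of 4 markers of blood monocytes and neutrophils called at 2 days, and the summed level of the 4 was 0.72 and 1.74 CPM in pre-SE, 3.46 and 5.69 in SE 6 h, 5.35 and 5.79 in SE + LEV 6 h and 5.67 to 8.64 in the mice at 2 days, and each 6 h mouse was above both pre-SE mice. The endothelial markers Cdh5 and Esam (2 of 6) passed the test upward at 6 h and none of the 6 did at 2 days, and 0 of 7 neuronal, 5 oligodendrocyte and 4 choroid plexus markers were called at either time. The part of these cells in the rise of the module was not tested.

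**Figure D5:**
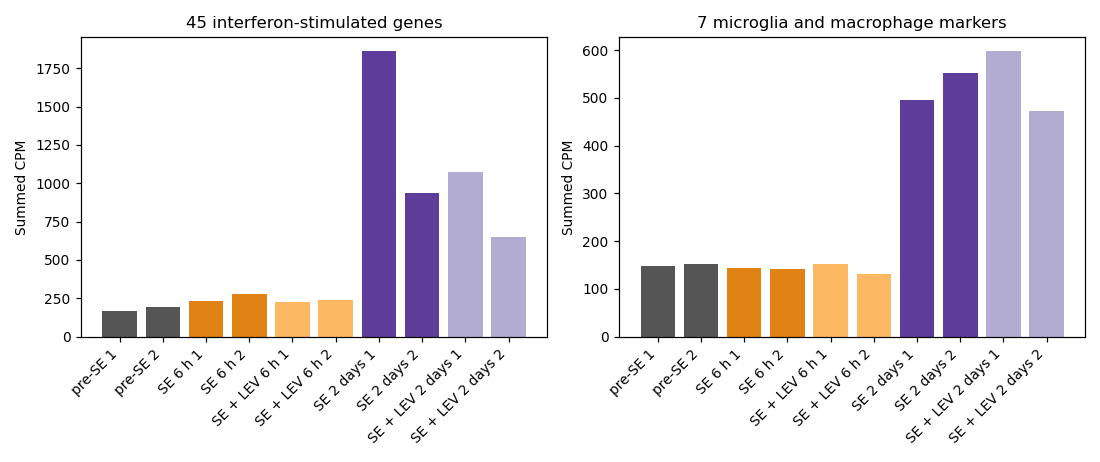
Bars give the summed CPM of the 45 interferon-stimulated genes (left) and of 7 microglia and macrophage markers (right) in each of 10 mice, coloured by group. On the left SE 2 days replicate 1 reaches 1860 and replicate 2 934, and on the right the 4 mice at 2 days lie between 473 and 597.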

How the data were processed

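Hippocampal RNA from 10 mice (5 groups of 2) was profiled by CAGE. Per the labels and the study's methods, the authors mapped tags to mm9 with BWA 0.7.17 and HISAT2 2.0.5, clustered them with RECLU and discarded weak clusters (BEDTools 2.12.0 and edgeR 3.22.5 are also named), and they deposited 1 CPM value per gene and mouse, rounded to 2 decimals. How clusters were summed to genes and whether strand was used are not given in the sources used here. The column sums are those of CPM, and 100% of values came back as whole tags within rounding to 2 decimals, in 10 of 10 libraries, which gave the depths and allowed count tests (edgeR called 799 of all genes higher and 67 lower in SE 2 days vs pre-SE).

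The 15851 genes that reached 0.1 CPM in 2 or more mice were fitted with limma 3.58.1 (R 4.3.3) on log2(CPM + 0.1), with 5 group means, a mean-variance trend and two-sided tests, adjusted by Benjamini-Hochberg. Fold changes on this scale understate those of low genes. Intervals come from the fitted spread between mice within groups, and tag limits cover counting error only. Same-numbered mice are different animals, so no pairing was assumed. edgeR 4.0.16 and DESeq2 1.42.0 on recovered tags, other pseudocounts (0.01, 0.5, 1), filters, rescaling, designs and leaving out each mouse were alternatives. On counts simulated for SE 2 days vs pre-SE, limma called 200 of 200 changed genes among 15784, with 12 false calls. The size of the change in those genes and the spread between mice in those counts are not given here. The share of real differences that limma would call in these mice was not tested. With 2 mice a group, p-values measure the spread between these samples only.

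Members and lists were chosen with earlier results of these data known. Values for each mouse are given for the 12 called genes with the largest logFC at 2 days, those called at 6 h, those with the smallest p with LEV and the 2 with the highest pre-SE level, and some others chosen after their values were seen. Promoter windows came from RefSeq (GRCm38.p6), matched by symbol to 35 of 45 genes, and positions from the GENCODE annotation of mm9. 1 gene of the pathway lists is not reported here.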

Additional observations from a re-analysis of the deposited data

How the results depend on the processing

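Across the alternatives, 166 recomputed counts of called genes stayed within 1.5 times the reported count and 26 did not, and no fit called a gene of the list lower with LEV. The 166 include counts of 0 that stayed 0, such as those with LEV at 6 h and at 2 days. They therefore do not show that the counts above 0 were stable. The count at 6 h, 1 gene higher than pre-SE, changed with the fit. A pseudocount of 0.01 gave 2, median-of-ratios rescaling 3, no trend 2, the 2 groups alone 0, edgeR 3 and DESeq2 5. Leaving out 1 mouse gave 25 to 41 genes higher in SE 2 days than in pre-SE, 12 to 37 higher than in SE 6 h, 10 to 33 higher in SE + LEV 2 days than in pre-SE and 3 to 25 higher than in SE + LEV 6 h. Fitted on the 2 groups alone, SE + LEV 2 days gave 0 genes higher than pre-SE and 12 higher than SE + LEV 6 h, and DESeq2 gave 6 genes higher in SE + LEV 6 h than in pre-SE. The cause was not tested. When 1 mouse was left out, the median logFC with LEV at 6 h ran from -0.125 to 0.053 (above 0 without replicate 2 of SE 6 h, 0.017, or of SE + LEV 6 h), that of Irf7 with LEV at 2 days from -1.01 to 0.093 (above 0 without SE 2 days replicate 1) and that of Ifitm3 from -0.67 to 0.061 (above 0 without SE + LEV 2 days replicate 2). A pseudocount of 1 brought the median logFC at 2 days from 3.40 to 2.35. Genes called in SE 2 days vs pre-SE that had an adjusted p above 0.05 in some alternative included Ifit2, Stat2, Irf1, Eif2ak2, Dtx3l, Sp100 and Oas2. Restricting the motif search to bases before the start left the ISRE in 37.1% and the GAS in 25.7% of the 35 genes.

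The labels number the mice of each group 1 and 2 without tying them to a shared litter or day. Deviations of same-numbered mice correlated between -0.44 and 0.34 over the comparisons. With the replicate number as a block, 1 gene was called higher at 6 h, 39 in SE 2 days vs pre-SE, 35 in SE 2 days vs SE 6 h, 32 in SE + LEV 2 days vs pre-SE and 23 vs SE + LEV 6 h, and none with LEV. With the numbers crossed in SE + LEV 2 days, chosen after seeing the data, the last 3 counts were 34, 22 and 0. Depth limits genes with few or no tags in mice before 2 days, among them Irgm2, Mx1, Iigp1, Oas1a, Oas2, Zbp1, Uba7, Dhx58 and Ifi44. Their logFC depends on the pseudocount.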

Other observations

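A pair of p200-family genes outside the module, which encode DNA-binding sensor proteins, had lower values in the mice with LEV than in those without at 6 h. They were chosen after their values were seen. Ifi205 and Aim2, of the same family, differed little with LEV at 6 h (logFC -0.19 and -0.17). Ifi203 measured 0.34 and 0.31 CPM in pre-SE, 8.95 and 4.59 in SE 6 h, 0.2 and 1.23 in SE + LEV 6 h, 3.31 and 0.43 in SE 2 days and 3.47 and 0.45 in SE + LEV 2 days, and Ifi204 measured 0.03 and 0.08 CPM in pre-SE, 1.89 and 1.99 in SE 6 h, 0.2 and 0.28 in SE + LEV 6 h, 12.4 and 15.5 in SE 2 days and 14.1 and 1.97 in SE + LEV 2 days. For both Ifi203 and Ifi204, each SE 6 h mouse was above each SE + LEV 6 h mouse, as for 13.4% of all genes. Neither difference passed the test (logFC -3.37 with unadjusted p = 0.00938 and adjusted p = 0.732, and logFC -2.59 with unadjusted p = 0.00474 and adjusted p = 0.618). At 2 days the mice of one group differed from each other in both genes with LEV, and for Ifi203 also without it. The p200 genes are close relatives, so tags may be shared between them.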
